A study of Homo sapiens with 12 samples.

Results

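Fatty acid oxidation was followed through 35 genes in A498, a human kidney carcinoma cell line, after knockdown of ELOVL2, of ELOVL5, or of both. The genes were taken by name from a list of enzymes of the pathway, on condition that 3 or more of the 12 libraries held a value of 1 or above. All 35 passed it, out of 57773 genes in the deposited table and 18648 genes past the same filter. By their usual location, 22 encode mitochondrial proteins (CPT1A, CPT1B, CPT2, SLC25A20, ACADS, ACADM, ACADL, ACADVL, ACAD9, ACAD10, HADHA, HADHB, HADH, ECHS1, ACAA2, ECI1, DECR1, ETFA, ETFB, ETFDH, PDK4 and ACOT2). Another 9 encode peroxisomal proteins (ACOX2, ACOX3, EHHADH, HSD17B4, ACAA1, SCP2, ECI2, DECR2 and ACOT8), and 4 act elsewhere or at several sites (CPT1C, CRAT, ACAD11 and ACOT1). The labels give 4 groups of 3 biological replicates: cells given an siRNA against ELOVL2 (siELOVL2), an siRNA against ELOVL5 (siELOVL5), both siRNAs (double knockdown), or a control siRNA. All groups are the same cell line, so nothing here separates A498 from other kidney tumour cells. The labels used here state neither the siRNA sequences and doses nor the time from transfection to harvest.

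Long-chain fatty acids enter mitochondria by the carnitine shuttle: CPT1 enzymes on the outer membrane form acylcarnitines, SLC25A20 carries them across the inner membrane, and CPT2 turns them back into acyl-CoA. Acyl-CoA dehydrogenases, a hydratase, a hydroxyacyl-CoA dehydrogenase and a thiolase then shorten the chain cycle by cycle, and the electron transfer flavoprotein system passes the electrons to the respiratory chain. Peroxisomes run a similar cycle with an oxidase in place of the dehydrogenase, and they take the very long and branched chains first. ELOVL2 and ELOVL5 lengthen polyunsaturated fatty acids in the endoplasmic reticulum, and clear cell kidney carcinomas are known for stored lipid and for low fatty acid oxidation.

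The levels are read counts after quantile normalization by the authors, called normalized counts here. Every library therefore totals 8.53 M, while the estimated depth before that step was 6.70 to 10.7 M reads. Without any read, a gene could be listed at up to 0.917 normalized counts. Both siRNAs lowered their targets. ELOVL2 had 18.4 to 30.1 normalized counts in siELOVL2 cells and 19.9 to 26.5 in double-knockdown cells, against 211 to 299 in control cells. ELOVL5 had 141 to 156 in cells given its siRNA alone (siELOVL5) and 172 to 187 in the double knockdown, against 1939 to 2038 in control cells. Of the 10 kidney carcinoma and epithelial markers, EPCAM averaged only 2.53 and CA9 15.3 in control cells. The markers summed to 28650 to 29530 in siELOVL2 cells and 28110 to 34490 in siELOVL5 cells. In double-knockdown cells the sum was 26430 to 30600, and in control cells 35800 to 36300. It came mostly from VIM, with means of 15105 in siELOVL2, 18621 in siELOVL5, 14364 in double-knockdown and 21271 in control cells. KRT8 means were higher with the ELOVL2 siRNA (7522 alone, 7518 with both siRNAs) than in control cells (6169, range 5179 to 7685). Endothelial markers summed to at most 7.17 in any library. Leukocyte markers summed to 295 to 455 and fibroblast and pericyte markers to 365 to 539.5. PTPRC, CD3E, LYZ, DCN and LUM were at or near 0 in control cells. The leukocyte sum came mostly from CD68, with a control mean of 330. Of the fibroblast and pericyte markers, COL1A1 had a control mean of 396, RGS5 of 91.3 and PDGFRB of 25.0. COL1A1 averaged 287 with the ELOVL2 siRNA alone, 287 with both siRNAs and 405 with the ELOVL5 siRNA alone. The part of these marker levels in the results was not tested. In RNA from a whole culture, fewer cells of a kind and less RNA per cell cannot be told apart.

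Fold changes are given as log2(value + 1) differences with their standard error (SE), from a limma fit of all 4 groups, and a gene is called when its p, adjusted by Benjamini-Hochberg over the 18648 tested genes, is under 0.05. In the double knockdown against control, HADHB and CPT1A rose and no member fell. HADHB and CPT2 rose in the double knockdown against siELOVL5 alone. No member was called in siELOVL2 cells or in siELOVL5 cells against control in this main fit. Other settings called HADHB in siELOVL2 cells, as given with that gene. With the replicate number as a block CPT1A, CRAT and ETFB were also called there, and with library weights ETFB and ACAD10. Among the mitochondrial members the median difference from control was 0.15 for siELOVL2, -0.05 for siELOVL5 and 0.18 for the double knockdown. The peroxisomal medians were 0.09 for siELOVL2, -0.07 for siELOVL5 and 0.15 for the double knockdown (0.0163 for siELOVL5 without its replicate 3, where the mitochondrial median was -0.0116). Over all tested genes the medians were 0.02, -0.00387 and 0.02 for the same groups.

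**Figure D1:**
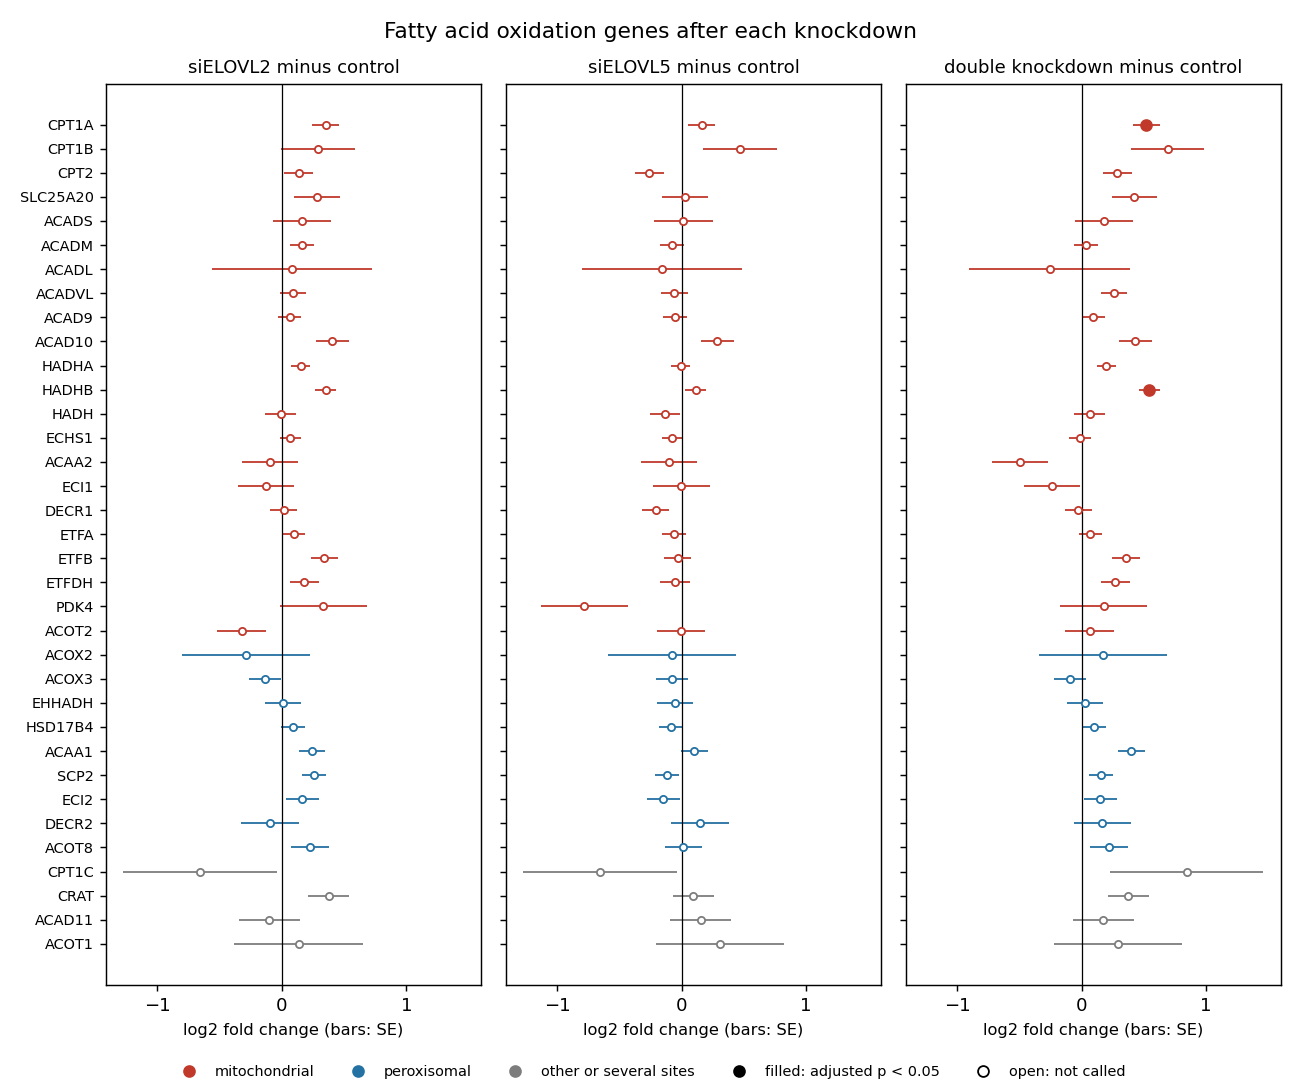
Log2 fold change of each of the 35 genes against control (x axis, bars are SE) in siELOVL2, siELOVL5 and double-knockdown cells, coloured by compartment, with filled points for calls at an adjusted p under 0.05. The filled points are CPT1A (0.52) and HADHB (0.54) in the double knockdown, and the long bars belong to genes with few reads such as ACADL and CPT1C.

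The upstream sequences of the 3 called members are shown because these genes carry the results below. They come from RefSeq (GRCh38.p14) and cover up to 250 bases before the annotated start, 5′ to 3′ along the strand named. Capitals mark GC boxes (GGGCGG, the box bound by SP1 family factors) and ETS-type matches (CCGGAAG), searched on both strands.
CPT2, chr1:53196574-53196823, plus strand: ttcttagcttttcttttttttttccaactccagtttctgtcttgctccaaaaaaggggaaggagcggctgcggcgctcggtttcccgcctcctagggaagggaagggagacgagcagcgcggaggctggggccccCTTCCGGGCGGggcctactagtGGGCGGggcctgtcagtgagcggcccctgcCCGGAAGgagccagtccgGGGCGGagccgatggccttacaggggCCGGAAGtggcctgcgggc
CPT1A, chr11:68844278-68844527, minus strand: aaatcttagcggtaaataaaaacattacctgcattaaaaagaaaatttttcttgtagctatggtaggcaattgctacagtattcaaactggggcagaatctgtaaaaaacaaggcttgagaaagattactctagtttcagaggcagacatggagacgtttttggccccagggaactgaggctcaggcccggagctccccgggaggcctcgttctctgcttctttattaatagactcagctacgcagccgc
HADHB, chr2:26244689-26244938, plus strand: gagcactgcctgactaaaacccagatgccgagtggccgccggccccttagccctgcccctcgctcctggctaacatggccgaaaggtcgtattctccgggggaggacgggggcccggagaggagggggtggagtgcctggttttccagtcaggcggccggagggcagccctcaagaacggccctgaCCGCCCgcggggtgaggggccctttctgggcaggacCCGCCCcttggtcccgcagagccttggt

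The CPT2 window holds 3 GC boxes and 3 ETS-type matches, of which 1 pair overlaps, the CPT1A window holds none of either, and the HADHB window holds 2 GC boxes and no ETS-type match. HADHB and HADHA, the subunits of the mitochondrial trifunctional protein, are transcribed away from each other on chromosome 2. Their starts lie at 26244939 and 26244632, with 306 bases between them, so the first 194 bases of the HADHB window, up to 26244882, also belong to the upstream window of HADHA and hold 1 GC box. Of the 35 members, 25 had an entry in the promoter table, with 34 windows. GGGCGG was in 24 of the 34 windows (70.6%), against 42.6% of all 35116 windows in the table, and CCGGAAG in 5 (14.7%), against 8.52%. AGGTCA, the half-site of nuclear receptors such as PPARA, was in 1 window (ACAD10, 2.94%), against 12.1%, and TCAAGGTCA, the element of oestrogen-related receptors, in 0, against 0.319%. The direct repeat of the half-site spaced by 1 base, the classic PPAR element, was in 0 of the 34 windows, against 0.0171%. For this repeat and the element of oestrogen-related receptors, shares over all windows are so low that 0 matches in 34 windows cannot set the members apart. A window can hold several of these motifs, and a match describes the letters and not a bound site. CPT1B, ACAD11, CRAT, ACOX2, ACAA1, EHHADH, DECR1, DECR2, ETFDH and ACOT1 had no entry.

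CPT1A, the liver-type carnitine palmitoyltransferase that sets the rate of mitochondrial entry, had 752, 615 and 761 normalized counts in siELOVL2 cells, 606, 572 and 678 in siELOVL5 cells, 772, 724 and 888 in the double knockdown and 542, 516 and 600.5 in control cells. All libraries of the double knockdown and of siELOVL2 lay above all controls, while siELOVL5 overlapped with them. CPT1A rose 1.43-fold in the double knockdown (log2 fold change 0.52, SE 0.109, limma adjusted p = 0.0185). The value in siELOVL2 cells was 0.36 (limma adjusted p = 0.148) and that in siELOVL5 cells 0.16 (0.666). The call was lost without double-knockdown replicate 1 (adjusted p = 0.0542) or 3 (0.0596) and without control replicate 1 (0.0762) or 2 (0.0953), with log2 fold changes of 0.44 to 0.54 in those limma fits. It was also lost without an intensity trend in limma (adjusted p = 0.0651).

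CPT2, the inner-membrane carnitine palmitoyltransferase, moved in another way. It had 104, 123.5 and 127 normalized counts in siELOVL2 cells, 89.25, 89.8 and 88.6 in siELOVL5 cells, 129, 126 and 136 in the double knockdown and 111, 102 and 107 in control cells. All siELOVL5 libraries lay below all controls and all double-knockdown libraries above them. CPT2 was higher in the double knockdown than in siELOVL5 cells by 0.55 (SE 0.116, limma adjusted p = 0.0264). Neither side reached a call against control, with 0.29 in the double knockdown (limma adjusted p = 0.2) and -0.26 in siELOVL5 cells (0.514). The call against siELOVL5 was lost in limma fits without siELOVL5 replicate 1 (adjusted p = 0.0717) or 2 (0.0567) and without double-knockdown replicate 1 (0.0799), 2 (0.0767) or 3 (0.0771), and in the fit of the compared groups alone (0.168). Exons of CPT2 overlap those of C1orf123 on the opposite strand over 623 bases in GENCODE 29, and whether the counting used strand is not given in the sources used here. C1orf123 itself differed by 0.11 between the double knockdown and siELOVL5 cells (limma adjusted p = 0.666).

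The other shuttle genes gave no call in the main fit. SLC25A20, the carnitine-acylcarnitine carrier, averaged 79.6 ± 15.3 normalized counts in siELOVL2 cells, 65.6 ± 0.625 in siELOVL5 cells, 87.8 ± 18 in double-knockdown cells and 64.4 ± 3.08 in control cells (SD, n = 3 each). CPT1B, the muscle-type isoform, had 44.75, 29.1 and 29.9 in siELOVL2 cells, 35.75, 35.75 and 44.6 in siELOVL5 cells, 44.25, 42.9 and 48 in the double knockdown and 32.9, 39.25 and 16 in control cells. Its double-knockdown libraries lay above all controls (0.69, SE 0.296, limma adjusted p = 0.229), and it shares 2377 exonic bases with the readthrough gene CHKB-CPT1B, so reads of the pair may be split. CPT1C, the brain isoform, had 0, 2 and 0 reads in siELOVL2 cells, 2, 0 and 0 in siELOVL5 cells, 4, 3 and 2 in the double knockdown and 0, 2 and 3 in control cells. At this depth no difference in CPT1C could be read. CRAT, which handles short acyl chains in several compartments, averaged 578 ± 112 in siELOVL2 cells, 471 ± 58 in siELOVL5 cells, 578 ± 123 in double-knockdown cells and 440.5 ± 46.7 in control cells (SD, n = 3 each). The groups overlapped for CRAT, which was called only with the replicate number as a block. Its limma adjusted p was then 0.0229 in siELOVL2 cells and 0.0131 in the double knockdown.

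Per kilobase of exon (GENCODE 29 lengths), control cells held far more CPT1A than its isoforms: 95.5 ± 7.47 normalized counts for CPT1A, 9.90 ± 4.05 for CPT1B and 0.514 ± 0.468 for CPT1C (SD, n = 3). CPT2 stood at 33.6 ± 1.46 and SLC25A20 at 34.2 ± 1.63 per kilobase, closer to each other than their spread. Among all 35 members the highest level per kilobase was that of ACADVL at 868 ± 31.4, followed by HADHA at 662 ± 38.3, ECHS1 at 499.5 ± 17.5 and HADHB at 309.6 ± 4.75. ETFB, ETFA, HSD17B4, ECI1, DECR1 and ECI2 came next, between 223 and 278 per kilobase. Neighbours among these 6 differed by less than the larger SD of the pair. HSD17B4 (254 ± 11.2) and ECI2 (223 ± 18.1) led the peroxisomal members, and ACOT1, ACADL, CPT1C and ACOX2 stood lowest, all under 1 per kilobase.

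HADHB encodes the thiolase-bearing beta subunit of the trifunctional protein and gave the smallest adjusted p of the members. It had 829, 873 and 956 normalized counts in siELOVL2 cells, 679, 781.5 and 787 in siELOVL5 cells, 966, 982 and 1081 in the double knockdown and 696, 679.7 and 699.7 in control cells. The double-knockdown libraries lay above every library of the other groups, and the siELOVL2 libraries above every siELOVL5 and control library. HADHB rose 1.46-fold in the double knockdown (0.54, SE 0.0826, limma adjusted p = 0.00303). It stayed called in all 21 alternative fits. In siELOVL2 cells the value was 0.35 (limma adjusted p = 0.0561), and it was called without siELOVL5 replicate 1 (0.044) or 3 (0.0219). It was also called with a filter of 10 normalized counts (limma adjusted p = 0.0447) and in the fit of the compared groups alone (0.0475). Library weights (limma adjusted p = 0.0051) and the replicate number as a block (0.011) called it too. Against siELOVL5 cells the double knockdown was higher by 0.43 (SE 0.0826, limma adjusted p = 0.0165). That call was lost without siELOVL5 replicate 1 (limma adjusted p = 0.0624) and without double-knockdown replicate 2 (0.0601) or 3 (0.0558). It was also lost without an intensity trend (limma adjusted p = 0.0653) and in the fit of the compared groups alone (0.173).

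HADHA, the alpha subunit with the hydratase and dehydrogenase activities, starts 306 bases from HADHB as shown above. It had 2207.5, 2299.8 and 2421 normalized counts in siELOVL2 cells, 2021, 2096 and 2078 in siELOVL5 cells, 2220.5, 2303 and 2645 in the double knockdown and 1998, 2017 and 2216 in control cells. The double-knockdown libraries were again above all controls, but by less, and HADHA was not called (0.20, SE 0.0779, limma adjusted p = 0.181). The ratio of HADHB to HADHA normalized counts, a measure chosen after these values were seen, was 0.375, 0.380 and 0.395 in siELOVL2 cells, 0.336, 0.373 and 0.379 in siELOVL5 cells, 0.435, 0.426 and 0.409 in the double knockdown and 0.348, 0.337 and 0.316 in control cells. All double-knockdown and siELOVL2 ratios lay above all control ratios. A two-sided exact permutation test gave p = 0.1 for the double knockdown and p = 0.1 for siELOVL2, the smallest p that 3 against 3 libraries allow, and p = 0.3 for siELOVL5. The difference in the log2 ratio was 0.34 for the double knockdown, 0.20 for siELOVL2 and 0.12 for siELOVL5. This was not the only ratio to separate. CPT2 over CPT1A lay below all controls in siELOVL5 cells (log2 difference -0.42) and in the double knockdown (-0.23). The same permutation test gave p = 0.1 for each of these, and p = 0.3 for siELOVL2.

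**Figure D2:**
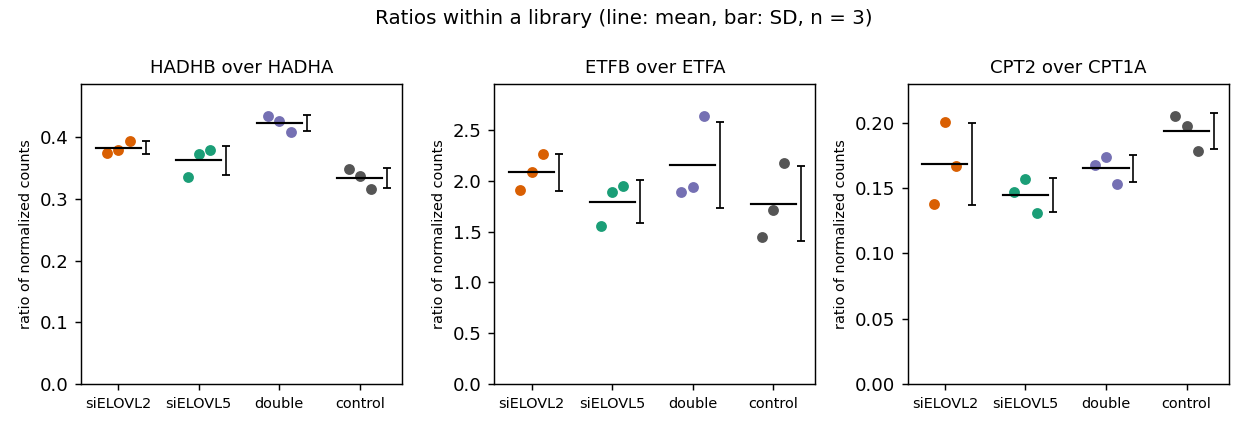
Ratio of normalized counts within each library (y axis, points) for HADHB over HADHA, ETFB over ETFA and CPT2 over CPT1A, in siELOVL2, siELOVL5, double-knockdown and control cells, with mean lines and SD bars over 3 libraries. HADHB over HADHA was 0.409 to 0.435 in the double knockdown, above the control range of 0.316 to 0.348, while ETFB over ETFA overlapped between groups. CPT2 over CPT1A was 0.131 to 0.157 in siELOVL5 and 0.154 to 0.174 in double-knockdown cells, below the control range of 0.179 to 0.206.

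The dehydrogenases that open the mitochondrial cycle gave no call in the main fit. ACADVL, which takes the very long chains, had 2328, 2196.5 and 2343 normalized counts in siELOVL2 cells, 2307, 2187 and 1742 in siELOVL5 cells, 2458, 2357 and 2924 in the double knockdown and 2203, 2059 and 2182 in control cells. Its double-knockdown libraries lay above all others (0.26 against control, SE 0.106, limma adjusted p = 0.206), and siELOVL5 replicate 3 was the lowest library. ACADM, the medium-chain enzyme, had 312, 313 and 320.4 in siELOVL2 cells, 294, 267 and 242 in siELOVL5 cells, 310, 270.3 and 288 in the double knockdown and 275, 306 and 267 in control cells. ACADM lay above all controls in siELOVL2 cells (0.16, SE 0.0962, limma adjusted p = 0.51) and overlapped elsewhere.

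ACAD10, a less studied family member, had 185, 198 and 189 normalized counts in siELOVL2 cells, 155, 189 and 183 in siELOVL5 cells, 197, 169.6 and 218 in the double knockdown and 165, 144 and 124 in control cells. Double-knockdown and siELOVL2 libraries were above all controls, at 0.43 (SE 0.133, limma adjusted p = 0.0888) and 0.41 (0.174) in turn. ACADS, the short-chain enzyme, averaged 96.8 to 109.7 in the groups, and ACAD9, also an assembly factor of respiratory complex I, averaged 364 to 405. ACADL, the long-chain enzyme, had 14 reads in all 12 libraries together and no readable difference. ACAD11 averaged 40.1 to 47.4 and is uncertain, since other annotation overlaps its exons.

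Later steps of the cycle moved little. ECHS1, the enoyl-CoA hydratase, averaged 849 ± 61.4 normalized counts in siELOVL2 cells, 768 ± 67.9 in siELOVL5 cells, 801 ± 47.2 in double-knockdown cells and 808 ± 28.3 in control cells (SD, n = 3 each). HADH, the hydroxyacyl-CoA dehydrogenase for shorter chains, averaged 288 to 331 in the groups, with overlap throughout. ACAA2, the mitochondrial thiolase for such chains, was low, with 35.4, 32.4 and 32.25 in siELOVL2 cells, 36.6, 28.2 and 35.4 in siELOVL5 cells, 32.8, 19.4 and 24.6 in the double knockdown and 39.9, 31.6 and 35.8 in control cells. Replicates 2 and 3 of the double knockdown were the lowest of the 12, but replicate 1 lay within the controls, and the difference was not called (-0.49, SE 0.225, limma adjusted p = 0.26).

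Unsaturated chains need auxiliary isomerases and reductases. ECI1, the mitochondrial isomerase, had 344, 501 and 662 normalized counts in siELOVL2 cells, 456, 524 and 620.2 in siELOVL5 cells, 381, 405 and 591 in the double knockdown and 465, 499 and 639.8 in control cells. The spread of ECI1 within each group was larger than any difference between groups. DECR1, the mitochondrial dienoyl-CoA reductase, had 385, 442 and 491 in siELOVL2 cells, 371.5, 401 and 352 in siELOVL5 cells, 411, 386 and 484 in the double knockdown and 425, 429 and 445 in control cells. All siELOVL5 libraries lay below all controls for DECR1 (-0.21, SE 0.107, limma adjusted p = 0.564).

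ETFA and ETFB form the electron transfer flavoprotein, and ETFDH hands its electrons to ubiquinone. ETFB had 1195, 1289 and 1421 normalized counts in siELOVL2 cells, 982, 1049 and 971 in siELOVL5 cells, 1209, 1214 and 1525 in the double knockdown and 921, 990.2 and 1174 in control cells. Double-knockdown and siELOVL2 libraries lay above all controls, with 0.35 (SE 0.111, limma adjusted p = 0.0949) in the double knockdown and 0.34 (0.169) in siELOVL2 cells. ETFDH had 189.5, 184 and 184 in siELOVL2 cells, 149.8, 149.5 and 176 in siELOVL5 cells, 194, 198 and 201.25 in the double knockdown and 153, 147 and 194 in control cells. Control replicate 3 reached the double-knockdown range, and ETFDH was not called (0.27, SE 0.118, limma adjusted p = 0.236). ETFDH overlaps PPID on the opposite strand over 490 bases. ETFA averaged 562 to 624 in the groups and overlapped throughout.

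PDK4, the kinase that turns off pyruvate dehydrogenase, is a usual companion of fatty acid use. It had 30.1, 23 and 19.8 normalized counts in siELOVL2 cells, 7.58, 16.75 and 9.08 in siELOVL5 cells, 24.4, 24.5 and 16.3 in the double knockdown and 28.25, 14.3 and 16.3 in control cells. The siELOVL5 libraries held the 2 lowest values but overlapped with control (-0.78, SE 0.348, limma adjusted p = 0.514), and these values rest on 8 to 33 reads a library. ACOT2, a mitochondrial thioesterase, had 53.8, 50.9 and 46.9 in siELOVL2 cells, 53.7, 63.7 and 73.3 in siELOVL5 cells, 55.2, 67.8 and 77.7 in the double knockdown and 79.25, 57 and 56.25 in control cells. The siELOVL2 libraries lay below all controls for ACOT2 (-0.32, SE 0.193, limma adjusted p = 0.507). ACOT1, its cytosolic and nearly identical copy, had 13 reads over the 12 libraries, so reads of this pair may be shared and both values are uncertain.

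**Figure D3:**
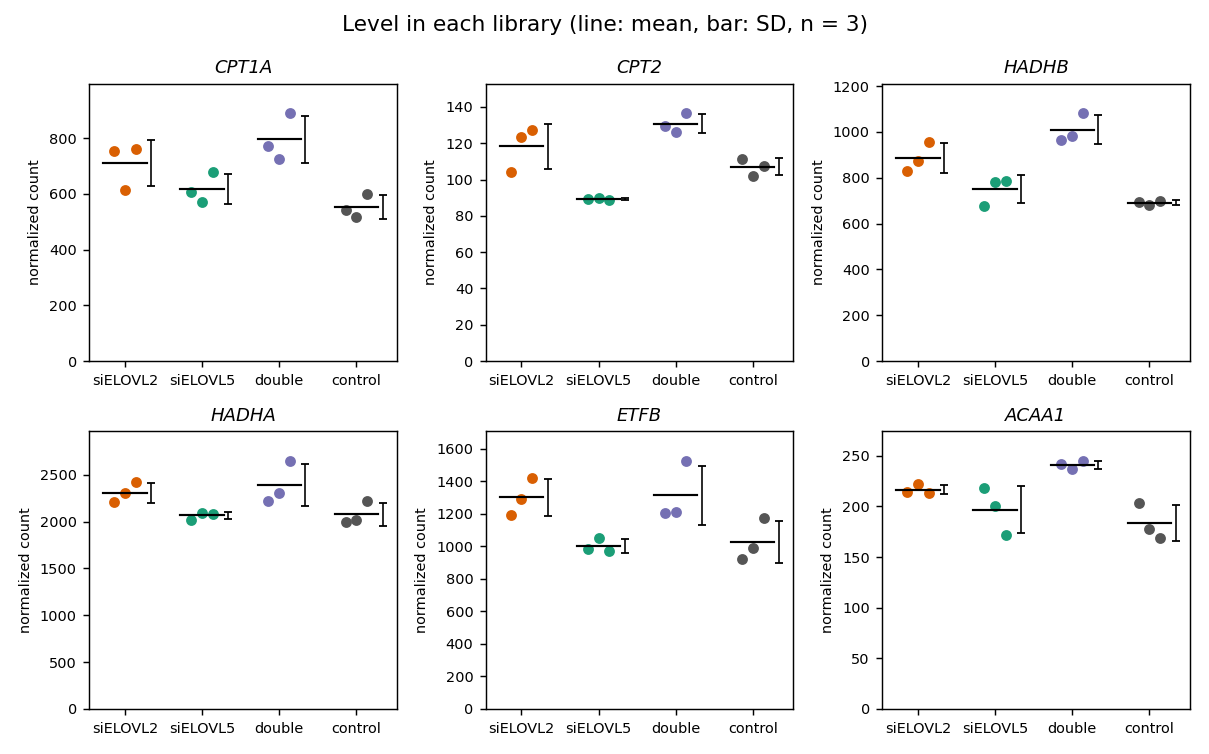
Normalized counts in each library (y axis, points) of CPT1A, CPT2, HADHB, HADHA, ETFB and ACAA1 in siELOVL2, siELOVL5, double-knockdown and control cells, with mean lines and SD bars over 3 libraries. HADHB was 966 to 1081 in the double knockdown, against 679.7 to 699.7 in control, and CPT2 stood near 89 in all 3 siELOVL5 libraries.

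None of the 9 peroxisomal genes was called in the fit of all libraries in any of the 6 comparisons. ACAA1, the peroxisomal thiolase for straight chains, came nearest. It had 214, 222 and 213.5 normalized counts in siELOVL2 cells, 218.5, 200.3 and 172 in siELOVL5 cells, 242, 237 and 245 in the double knockdown and 203, 178 and 169 in control cells. The double-knockdown libraries were the 3 highest of the 12, with 0.40 against control (SE 0.108, limma adjusted p = 0.056). ACAA1 was called in limma without siELOVL5 replicate 3 (adjusted p = 0.0146) and with a filter of 10 normalized counts (0.0407). Library weights (limma adjusted p = 0.0093) and the replicate number as a block (0.0239) called it too. ACAA1 overlaps DLEC1 on the opposite strand over 413 bases, and DLEC1 averaged 1.28 to 4.11 in the groups.

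HSD17B4, the multifunctional enzyme that also handles branched chains and bile acid precursors, had 954, 1044 and 1155 normalized counts in siELOVL2 cells, 955, 1018 and 817 in siELOVL5 cells, 1019, 1002.5 and 1143 in the double knockdown and 933, 1009.8 and 1006 in control cells. Its groups overlapped (0.10 in the double knockdown, SE 0.0975, limma adjusted p = 0.647). EHHADH, the other peroxisomal multifunctional enzyme, had 96.4, 110.4 and 120.2 in siELOVL2 cells, 97.25, 116 and 99.3 in siELOVL5 cells, 102, 109 and 120.25 in the double knockdown and 94.25, 106 and 126 in control cells. EHHADH differed by 0.03 between the double knockdown and control (SE 0.144, limma adjusted p = 0.947). SCP2, whose long form is the thiolase for branched chains, averaged 755 ± 45.9 in siELOVL2 cells, 583 ± 69.1 in siELOVL5 cells, 703 ± 48.2 in double-knockdown cells and 632 ± 42.8 in control cells (SD, n = 3 each). The siELOVL2 libraries of SCP2 lay above all controls (0.26, SE 0.0967, limma adjusted p = 0.243).

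ACOX3, an oxidase of branched chains, had 269, 305 and 230.5 normalized counts in siELOVL2 cells, 313, 287.5 and 237 in siELOVL5 cells, 288, 280.4 and 255 in the double knockdown and 330.2, 275 and 276 in control cells. Its groups overlapped. ACOX2, the bile acid and branched-chain oxidase, had 26 reads over all libraries. The auxiliary enzymes ECI2 and DECR2 and the thioesterase ACOT8 gave no call. ECI2 and ACOT8 lay above all controls in siELOVL2 cells, at 0.17 (limma adjusted p = 0.64) and 0.23 (0.551).

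Counts over the members are read here beside those over all tested genes. In siELOVL2 cells 0 of 35 members were called, where 1.36% of all tested genes were. At an unadjusted limma p under 0.05 there were 7 members, all higher, and 13.7% of tested genes in either direction. Of the 18648 tested genes, 1403 were higher at that p. All 3 siELOVL2 libraries lay above all 3 controls for 9 members and below them for 1 (ACOT2), where the shares of tested genes were 12% above and 10.4% below. The 9 were 5 mitochondrial genes (CPT1A, ACADM, ACAD10, HADHB and ETFB) and 4 peroxisomal genes (ACAA1, SCP2, ECI2 and ACOT8). Of the 22 mitochondrial members 18 had a fold change above 0, and 6 of the 9 peroxisomal members. So did 9807 of the 18648 tested genes.

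In siELOVL5 cells 0 of 35 members were called, where 0.139% of tested genes were. The unadjusted limma p was under 0.05 for 2 members, CPT2 and PDK4, both lower, and for 9.56% of tested genes in either direction. Of the 18648 tested genes, 899 were lower at that p. No member lay above all controls (6.07% of tested genes did) and 2 lay below, CPT2 and DECR1 (7.04%). Fold changes were above 0 for 6 of 22 mitochondrial and 3 of 9 peroxisomal members, and for 9018 of the 18648 tested genes. One library weighed on the peroxisomal value. The median difference of the 9 peroxisomal genes from the control mean was 0.04, 0.05 and -0.27 in siELOVL5 replicates 1, 2 and 3. Without that replicate the peroxisomal median in siELOVL5 cells was 0.0163, in place of -0.0737, and the mitochondrial median was -0.0116, in place of -0.0532.

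In the double knockdown 2 of 35 members were called, both higher, where 4.42% of tested genes were called and 2.15% were called higher. At an unadjusted limma p under 0.05 there were 12 members higher and 1 lower (ACAA2), where 18.8% of tested genes passed in either direction. Of the 18648 tested genes, 1838 were higher and 1667 lower at that p. All 3 double-knockdown libraries lay above all controls for 9 members and below for none, against 13.4% and 11.4% of tested genes. Of those 9, 8 were mitochondrial (CPT1A, CPT1B, CPT2, ACADVL, ACAD10, HADHA, HADHB and ETFB) and 1 was peroxisomal (ACAA1). Fold changes were above 0 for 17 of 22 mitochondrial and 8 of 9 peroxisomal members, and for 9738 of the 18648 tested genes. Without siELOVL5 replicate 3, 3 members were called (ACAA1 joined), and without double-knockdown replicate 1 or 3 or control replicate 1 or 2 there was 1, HADHB.

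Against siELOVL2 alone, the double knockdown called 0 of 35 members and 0.059% of tested genes. At an unadjusted limma p under 0.05 there were 2 members, HADHB and CPT1C, and 3.6% of tested genes. Against siELOVL5 alone, 2 members were called, both higher (HADHB and CPT2), where 2.77% of tested genes were called and 1.36% were called higher. Here 12 members passed an unadjusted limma p under 0.05, all higher in the double knockdown, and 17.4% of tested genes did in either direction. Of the 18648 tested genes, 1833 were higher at that p. Without single libraries 0 members were called (siELOVL5 replicate 1, double-knockdown replicate 2 or 3) or 1 (siELOVL5 replicate 2, double-knockdown replicate 1). The interaction, which asks whether both siRNAs together differ from the sum of the single effects, called 0 members and 0% of tested genes in limma. At an unadjusted p under 0.05 it held 2 members, CPT2 (0.41, SE 0.164) and CPT1C, and 2.8% of tested genes. CPT1C, counted here and against each single knockdown, had 0 to 4 reads a library, too few to read a difference. For CPT1A the interaction was 0.00394 (SE 0.154) and for HADHB 0.08 (SE 0.117).

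**Figure D4:**
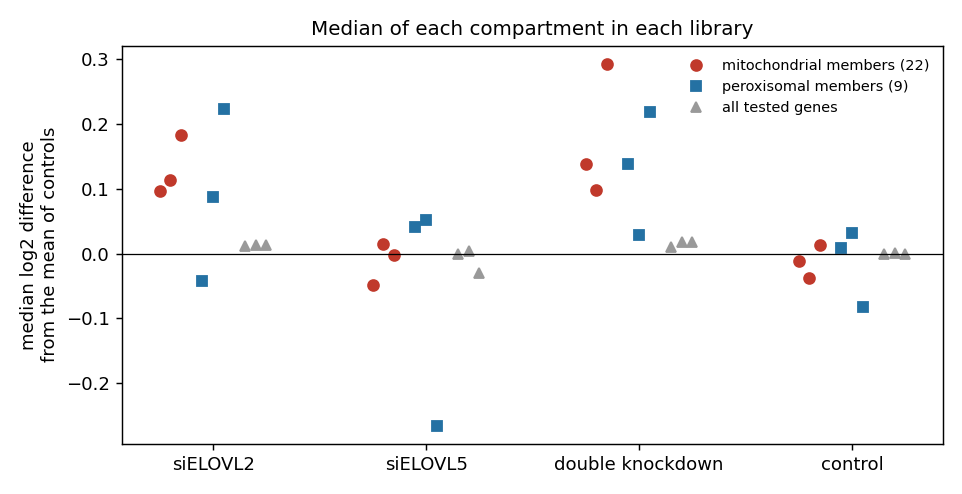
Median log2 difference from the mean of the controls (y axis) over the 22 mitochondrial members, the 9 peroxisomal members and all tested genes, one point a library, for siELOVL2, siELOVL5, double-knockdown and control cells. Mitochondrial medians were 0.0959 to 0.184 in siELOVL2 and 0.0988 to 0.293 in the double knockdown, against -0.0386 to 0.0125 in control, and siELOVL5 replicate 3 stood lowest for the peroxisomal genes at -0.266.

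By library, the mitochondrial median was above every control in all siELOVL2 libraries and all double-knockdown libraries, while the peroxisomal median was not. The median over all tested genes also lay above every control there, though by less. It was 0.0115 to 0.0132 in siELOVL2 and 0.0101 to 0.0177 in double-knockdown libraries, against at most 0.00014 in control. Control libraries are measured from their own mean, which holds them near 0. The peroxisomal medians were -0.0422, 0.0881 and 0.223 in siELOVL2 replicates 1, 2 and 3 and 0.138, 0.0293 and 0.219 in double-knockdown replicates 1, 2 and 3, against 0.00866, 0.0325 and -0.082 in control replicates 1, 2 and 3. A median of 9 genes is less steady than one of 22, and the difference between the compartments was not tested. A list of 16 genes of mitochondrial mass, such as CS, TFAM and the VDAC channels, had medians of -0.00658 for siELOVL2, -0.0568 for siELOVL5 and 0.00156 for the double knockdown. In limma 0 of its genes were called in these comparisons, and 1, 0 and 1 had an unadjusted p under 0.05 for the same groups. The shares of all tested genes at that p were 13.7%, 9.56% and 18.8%. A list of 10 genes of ketone body enzymes and other acyl-CoA dehydrogenases moved much as the mitochondrial members did. Its medians were 0.14 for siELOVL2, -0.11 for siELOVL5 and 0.18 for the double knockdown, beside 0.15, -0.05 and 0.18 for those members. The medians of the mitochondrial members are thus not particular to fatty acid oxidation.

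Genes around the pathway were read from 8 lists with 115 genes. Their counts stand beside the shares of all tested genes called. These were 1.36% in siELOVL2 cells, 0.139% in siELOVL5 cells, 4.42% in the double knockdown and 2.77% for the double knockdown against siELOVL5. With lists this short, 1 or 2 calls cannot be told from those shares. Among 15 nuclear receptors and cofactors of the PPAR and oestrogen-related receptor system, 1 rose in siELOVL2 cells, 1 fell in siELOVL5 cells, and 1 rose and 1 fell in the double knockdown. RXRA, a retinoid X receptor that pairs with the PPARs, had 1429.7, 1578 and 1628 normalized counts in siELOVL2 cells, 869, 942 and 845 in siELOVL5 cells, 1161, 1132 and 1289 in the double knockdown and 1461, 1464 and 1534 in control cells. The siELOVL5 libraries were the 3 lowest and the double knockdown lay between them and control. RXRA fell by 0.75 in siELOVL5 cells (SE 0.0771, limma adjusted p = 0.0011), and this held without any single library but not in the fit of the compared groups alone (0.0652). It was higher in the double knockdown than in siELOVL5 cells by 0.43 (limma adjusted p = 0.0123), which also held without any single library but not without an intensity trend (0.0592) or in the fit of the compared groups alone (0.161). Against control RXRA fell by 0.32 in the double knockdown (limma adjusted p = 0.0362), a call lost at adjusted p of 0.0615 to 0.137 without siELOVL2 replicate 2, double-knockdown replicate 1 or 2, or any control replicate.

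RXRB, its relative, had 266, 286 and 253 normalized counts in siELOVL2 cells, 208, 223.5 and 209 in siELOVL5 cells, 234, 280 and 289 in the double knockdown and 174, 206 and 193 in control cells. All knockdown libraries lay above all controls. RXRB rose by 0.49 in siELOVL2 cells (limma adjusted p = 0.0415) and by 0.48 in the double knockdown (0.0236). Both calls were fragile in limma: the first was lost (adjusted p 0.0561 to 0.181) without any siELOVL2 or control replicate, without double-knockdown replicate 2 and without siELOVL5 replicate 1 or 2, and the second (0.0607 to 0.107) without double-knockdown replicate 2 or 3 or control replicate 1 or 3. PPARA averaged 640.1 to 701 in the knockdown groups and 598 in control, with no call.

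NRIP1, a corepressor of oxidative genes, and PPARD, the PPAR of many cell types, were called between the double knockdown and siELOVL5 alone. NRIP1 had 3184, 3293 and 3406 normalized counts in siELOVL2 cells, 2269, 2220.5 and 2318 in siELOVL5 cells, 2878, 2993 and 2870.5 in the double knockdown and 2714, 2776 and 3035 in control cells. It lay above all controls in siELOVL2 cells and below all of them in siELOVL5 cells, and was higher in the double knockdown than in siELOVL5 cells by 0.36 (limma adjusted p = 0.0125, and 0.0647 without double-knockdown replicate 2). PPARD had 365, 390.4 and 352 in siELOVL2 cells, 497.8, 503 and 496 in siELOVL5 cells, 351, 408 and 395 in the double knockdown and 422, 469 and 397 in control cells. The order was the opposite, with siELOVL2 below and siELOVL5 above all controls. PPARD was lower in the double knockdown than in siELOVL5 cells (-0.38, limma adjusted p = 0.0397). That call was lost (adjusted p 0.0527 to 0.136) without any siELOVL2 or double-knockdown replicate, siELOVL5 replicate 1 or 2, or control replicate 1.

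Malonyl-CoA, made by ACACA and ACACB, blocks CPT1, and AMP-activated kinase relieves that block. Of 9 genes of this control, 1 rose and 1 fell in the double knockdown against control. PRKAA1, a catalytic subunit of the kinase, had 1056, 1079.9 and 1129.6 normalized counts in siELOVL2 cells, 946, 923 and 881 in siELOVL5 cells, 827, 773 and 883 in the double knockdown and 1136, 1152 and 1115 in control cells. Libraries given the ELOVL5 siRNA were all below the others. PRKAA1 fell by 0.46 in the double knockdown (SE 0.0691, limma adjusted p = 0.00303), also without any single library, and was at -0.31 in siELOVL5 cells (0.147).

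PRKAG2, a regulatory subunit, had 533, 554 and 466 normalized counts in siELOVL2 cells, 847, 875 and 1178 in siELOVL5 cells, 529, 578 and 562.5 in the double knockdown and 667, 749 and 659.5 in control cells. It lay above all controls with the ELOVL5 siRNA alone and below them in the other knockdowns. PRKAG2 was lower in the double knockdown than in siELOVL5 cells (-0.78, SE 0.118, limma adjusted p = 0.00439), also without any single library, but not in the fit of the compared groups alone (0.123). PRKAB2, a scaffold subunit, rose by 0.39 in the double knockdown (limma adjusted p = 0.0296), a call lost (0.0659 to 0.129) without double-knockdown replicate 1 or 2 or control replicate 1 or 2.

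Peroxisome formation was covered by 16 genes, all tested. PEX11G, a membrane protein of the PEX11 family that takes part in peroxisome division, had 2.67, 2.08 and 2.83 normalized counts in double-knockdown cells and 0 in all control libraries, near the detection limit. It passed the filter on low values through the knockdown libraries, so no test is given for it.

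Against siELOVL5 alone, PEX2 (0.36, limma adjusted p = 0.045) and PEX3 (0.60, 0.0273), both membrane proteins of peroxisome formation, were higher in the double knockdown. PEX2 lost its call (adjusted p 0.0501 to 0.141) without any 1 library other than control replicate 3, and PEX3 (0.0513 to 0.111) without siELOVL2 replicate 2, siELOVL5 replicate 2 or any double-knockdown replicate. Of 14 tested genes of fatty acid activation and uptake, 1 rose in the double knockdown. This was SLC27A4, an acyl-CoA synthetase and transport protein (0.48, limma adjusted p = 0.0137), lost (0.0513 to 0.0787) without double-knockdown replicate 1 or control replicate 1 or 2. None of 10 genes of ketone body enzymes and other acyl-CoA dehydrogenases was called in limma against control, with 1, 0 and 1 at an unadjusted p under 0.05 in siELOVL2, siELOVL5 and double-knockdown cells. The shares of all tested genes at that p were 13.7%, 9.56% and 18.8% in the same order.

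Of 12 tested PPAR targets outside the oxidation enzymes, 1 fell in the double knockdown against control and 2 were lower against siELOVL5. TXNIP, a thioredoxin-binding protein that limits glucose uptake, had 349, 313 and 304 normalized counts in siELOVL2 cells, 702, 717 and 1735 in siELOVL5 cells, 302, 268 and 406 in the double knockdown and 725, 643.5 and 622 in control cells. Libraries given the ELOVL2 siRNA were all below the others, and siELOVL5 replicate 3 was far above its group. TXNIP fell by 1.05 in the double knockdown (limma adjusted p = 0.048), a call lost (0.0643 to 0.165) without any siELOVL2 or control replicate or double-knockdown replicate 1 or 2. Against siELOVL5 the difference was -1.57 (limma adjusted p = 0.0103, and 0.0591 without double-knockdown replicate 2). PLIN2, the lipid droplet coat protein, was lower in the double knockdown than in siELOVL5 cells (-0.47, limma adjusted p = 0.0399). That call was lost (0.052 to 0.152) without any siELOVL2 or control replicate, double-knockdown replicate 1 or 2, or siELOVL5 replicate 2 or 3.

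**Figure D5:**
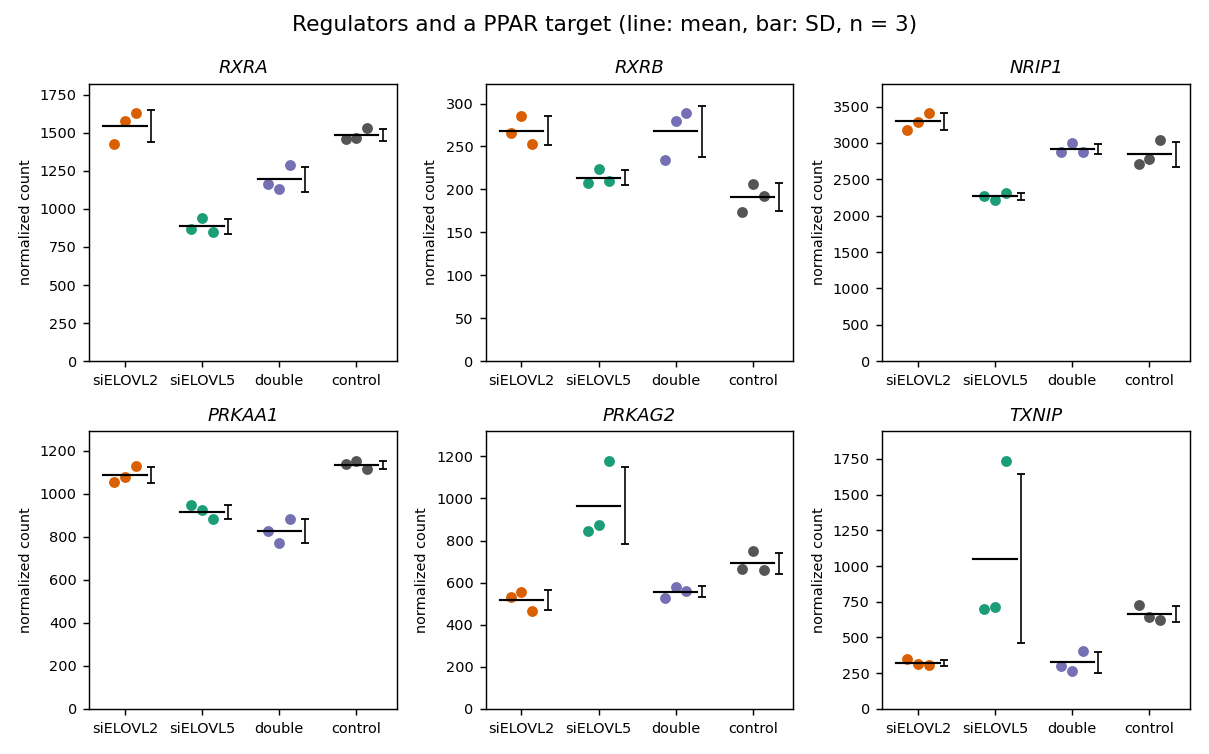
Normalized counts in each library (y axis, points) of RXRA, RXRB, NRIP1, PRKAA1, PRKAG2 and TXNIP in siELOVL2, siELOVL5, double-knockdown and control cells, with mean lines and SD bars over 3 libraries. RXRA was 845 to 942 in siELOVL5 cells, against 1461 to 1534 in control, and PRKAA1 was 773 to 883 in the double knockdown, against 1115 to 1152 in control.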

How the data were processed

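RNA had been sequenced from 12 libraries (paired-end, 36 bases) per the labels' protocols. The authors deposited 1 normalized signal value per gene and library; the sources used here do not name the aligner, counting tool, annotation or build. All 12 columns hold the same set of values, each a multiple of 1/12, which is the form quantile normalization of counts gives. Depth was estimated from the order of tied low values. The limma package 3.58.1 (R 4.3.3) was fitted to log2(value + 1), with an intensity trend, for genes at 1 or more in at least 3 libraries, with 8 residual degrees of freedom and a Benjamini-Hochberg threshold of 0.05. The labels put all libraries in 1 batch. Exon lengths are from GENCODE 29. Values per library are given for members called, for the 3 highest and lowest by moderated t in each knockdown, and for 11 enzymes of the main steps. The members, lists and tests were chosen with earlier results of these data known. Some genes of these lists, and the counts that rest on them, are not reported here.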

Additional observations from a re-analysis of the deposited data

How the results depend on the processing

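With 3 libraries a group and 6.70 to 10.7 M reads, low genes such as ACADL and CPT1C could not be compared. Over the members given by library, 1223 of the alternative values kept direction and side of the threshold, 17 became called, 16 lost their call and 43 uncalled values changed sign. Scaling by TMM and other pseudocounts left the members called as reported. TXNIP in the double knockdown was lost at a pseudocount of 5 (limma adjusted p = 0.0518) and without a filter (0.0703), PLIN2 against siELOVL5 without a filter (0.0594) and PEX2 against siELOVL5 with TMM scaling (0.0609).

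Leaving out 1 library at a time gave 0 to 1 members called in siELOVL2 (1 without siELOVL5 replicate 1 or 3), 0 to 0 in siELOVL5, 1 to 3 in the double knockdown, 0 to 0 against siELOVL2, 0 to 2 against siELOVL5 and 0 to 0 for the interaction. All genes called ranged from 63 (without control replicate 2) to 829 (without siELOVL5 replicate 3) in siELOVL2, 9 to 39 in siELOVL5, 325 to 1775 in the double knockdown, 2 to 16 against siELOVL2, 154 to 791 against siELOVL5 and 0 to 0 for the interaction, the highest counts of the first 5 coming without siELOVL5 replicate 3. Mitochondrial medians ranged from 0.106 to 0.168 in siELOVL2, -0.0726 to -0.0116 in siELOVL5 and 0.12 to 0.222 in the double knockdown, and peroxisomal medians from 0.0229 to 0.175, -0.107 to 0.0163 and 0.1 to 0.198 in the same order.

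A filter of 10 called 1 member (HADHB) in siELOVL2 and added ACAA1 in the double knockdown (limma adjusted p = 0.0407). Without the intensity trend 1 member was called in the double knockdown (CPT1A lost, limma adjusted p = 0.0651) and 1 against siELOVL5 (HADHB lost, 0.0653). Of the named pathway genes, RXRB in siELOVL2, RXRA, RXRB, PRKAB2 and TXNIP in the double knockdown, and RXRA, NRIP1, PPARD, PEX2, PEX3, PLIN2 and TXNIP against siELOVL5 also lost their calls without the trend (limma adjusted p 0.0541 to 0.124). All genes called without it were 101 in siELOVL2, 413 in the double knockdown, 21 against siELOVL2, 200 against siELOVL5 and 9 for the interaction. Fits of the compared groups alone called 1 member in siELOVL2 and 0 against siELOVL5, and 412 genes in siELOVL2, 1 in siELOVL5, 1 against siELOVL2 and 21 against siELOVL5. They lost, by limma adjusted p, RXRA in siELOVL5 (0.0652), RXRB in siELOVL2 (0.0514) and in the double knockdown (0.0698), PRKAB2 in the double knockdown (0.0653) and, against siELOVL5, HADHB (0.173), CPT2 (0.168), RXRA (0.161), PRKAG2 (0.123), NRIP1 (0.143), PPARD (0.197), PEX2 (0.19), PEX3 (0.208), TXNIP (0.195) and PLIN2 (0.243), which are all the named genes called in that comparison. Library weights called 3 members in siELOVL2 (HADHB, ETFB and ACAD10) and 4 in the double knockdown (ACAA1 and ETFB added), with 1569, 145, 2241, 27 and 1251 genes in siELOVL2, in siELOVL5, in the double knockdown, against siELOVL2 and against siELOVL5, and a mitochondrial median of -0.0164 in siELOVL5. The cause was not tested.

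With the replicate number as a block, 4 members were called in siELOVL2 (CPT1A, HADHB, CRAT and ETFB, limma adjusted p 0.011 to 0.0338), 6 in the double knockdown (ACAA1, CRAT, ETFB and HADHA added, 0.0131 to 0.0496) and 4 against siELOVL5 (CPT1A and ETFB added, 0.00793 and 0.0147), and 861 genes in siELOVL2, 99 in siELOVL5, 1866 in the double knockdown and 1368 against siELOVL5. The labels do not say that a number marks a shared day or culture, and same-numbered libraries deviated together with r between -0.00123 and 0.212, over 0.1 in 9 of 18 pairs. Libraries of different groups and different numbers had r between -0.215 and 0.0644. As a hint from the data, 10 of 12 libraries correlated best with a library of their own number.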
